A study of Mus musculus with 4 samples.

Results

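Basic helix-loop-helix (bHLH) transcription factors of mesoderm were compared along the dorsoventral axis of the tracheoesophageal anlage, dissected from BALB/c mouse embryos at about E9.75 and divided into a dorsal and a ventral part. The genes *Msc*, *Tcf21*, *Hand1*, *Hand2*, *Twist1* and *Twist2* were taken as the members by name, and every probe set with one of these as its only gene symbol in the platform annotation was used. This gave 10 probe sets for the 6 genes, of 45101 probe sets in all. The anlage is the tube that holds the future esophagus, trachea and lung bud, and the piece used ran from the end of the pharynx to the far end of the lung bud swelling and was cut by hand. Each part had 2 Affymetrix arrays, which the labels call biological replicates, and the labels name no altered allele and no agent in either part. They do not say whether the arrays came from separate litters or pools, so each p-value reflects the spread among these arrays and no wider one. The values are RMA values, that is, background-corrected, quantile-normalized intensities with 1 value per probe set, read here on a log2 scale, so a difference of 1 is a doubling.

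A bHLH factor binds DNA as a dimer. The tissue-restricted factors described here pair with the widely expressed E proteins and bind E-boxes, short sites with the letters CANNTG, whereas Id proteins lack the basic DNA-binding region and hold E proteins in inactive dimers. Musculin, encoded by *Msc*, is a repressor first known from muscle precursors, and it acts beside its close relative Tcf21 (capsulin) in the precursors of facial muscles. Tcf21 is also a factor of the mesenchyme around developing lung, kidney and heart. Hand1 and Hand2 are factors of heart and lateral mesoderm, with Hand2 also used in neural crest derivatives, and Twist1 and Twist2 are factors of undifferentiated mesenchyme.

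The arrays carried signal for genes of epithelium and of mesenchyme together. The endodermal genes *Epcam*, *Foxa2* and *Sox2* and the respiratory endoderm marker *Nkx2-1* exceeded the 40th percentile on each of the 4 arrays. So did the mesenchymal genes *Twist1* and *Twist2*. *Nkx2-1* was the lowest of these, with 5.10 and 5.03 dorsally and 5.09 and 5.25 ventrally, where the array medians were 5.42 to 5.47. Without detection calls, the *Nkx2-1* values do not show whether its RNA was present. In the test below, neither *Nkx2-1* nor *Sox2* passed. Their dorsal minus ventral differences were -0.10 and 0.57 (adjusted p = 0.799 and 0.0707 from limma). Ventral replicate 2 stood apart from the other arrays with an upper quartile of 7.75, where the highest was 8.02. The tested probe sets differed by a median of 0.08 between the dorsal arrays and 0.27 between the ventral ones. In such mixed samples, fewer cells of a type and less RNA per cell cannot be told apart.

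*Msc* was high dorsally, *Hand2* was high ventrally, and the other members differed less. Of the 10 member probe sets, 8 lay above the 40th percentile on 2 or more arrays and were tested with limma among 23336 probe sets. In limma the spread of each probe set is drawn toward that of all tested probe sets. The standard errors, intervals and p-values thus do not rest on the spread of that probe set alone. The *Msc* probe set was higher dorsally, 1 *Hand2* probe set was higher ventrally and the other 6 did not pass at an adjusted p of 0.05. Over all tested probe sets the share that passed was 3.28% in the dorsal direction and 2.56% in the ventral direction, with 765 and 597 probe sets. With so few members these counts were read only gene by gene. Without ventral replicate 1, 3 member probe sets were higher dorsally (*Msc*, *Twist1* and *Twist2*) and 2 ventrally (1436041_at and 1443854_at of *Hand2*), but 6739 and 2149 of all probe sets then passed as well. The counts over all probe sets were 296 and 354 without dorsal replicate 1 and 306 and 360 without dorsal replicate 2.

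**Figure D1:**
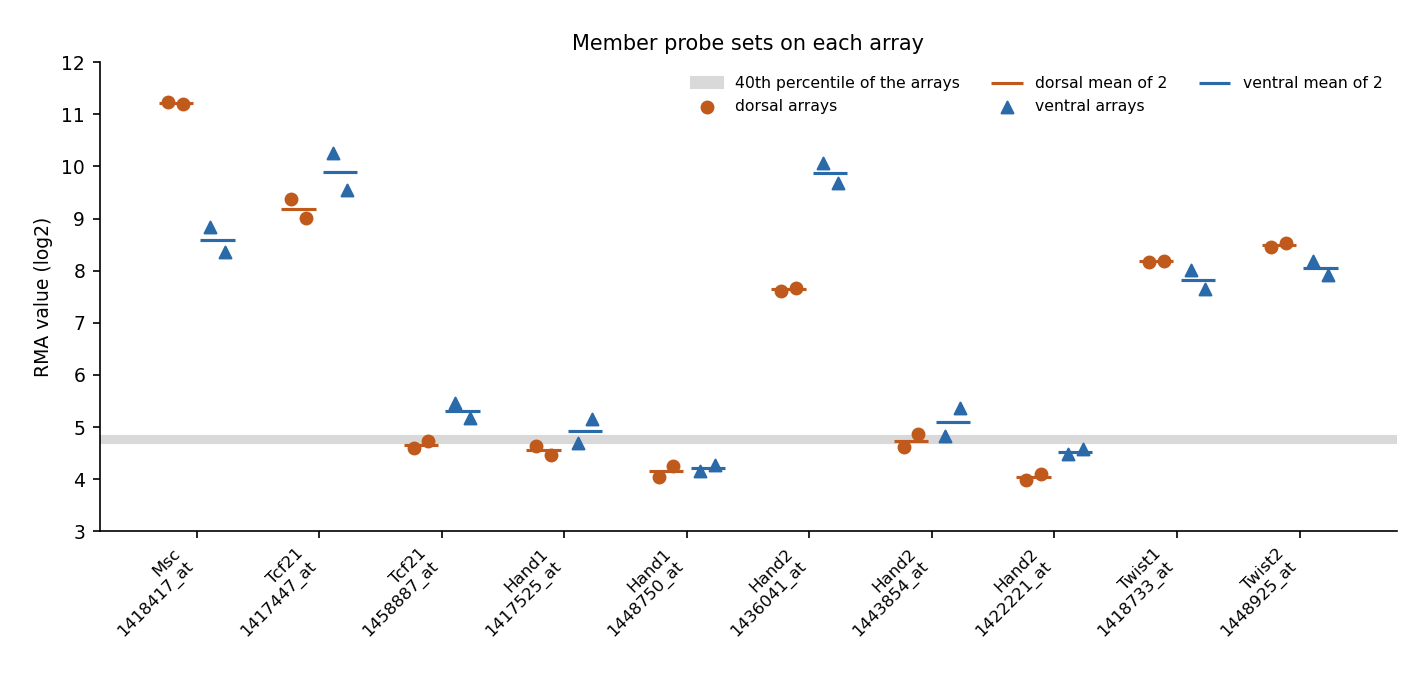
RMA values (log2, vertical axis) of the 10 member probe sets on the 2 dorsal arrays (circles) and the 2 ventral arrays (triangles), with a bar at each mean and a grey band over the 40th percentiles of the arrays. *Msc* lies higher dorsally (means 11.22 and 8.60), *Hand2* 1436041_at lies higher ventrally (7.64 and 9.88), and both *Hand1* probe sets lie at or near the band.

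*Msc* was measured by 1 probe set, 1418417_at. It gave 11.23 and 11.20 dorsally, against 8.84 and 8.36 ventrally. Each dorsal value lay above each ventral one, with a gap of 2.36 between the lower dorsal and the higher ventral array. The mean was 11.22 ± 0.02 dorsally and 8.60 ± 0.34 ventrally (SD, n = 2 arrays each), a log2 difference of 2.62 ± 0.19 (standard error) or 6.15-fold, with an adjusted p of 1.39e-05 from limma. On the dorsal arrays *Msc* lay at the 95.2 to 95.4 percentile of all probe sets, and on the ventral arrays at the 80.0 to 81.7 percentile, so its ventral values were not low. Only 31 tested probe sets, *Msc* included, had a dorsal excess at least as large. The difference ran from 2.38 without ventral replicate 2 to 2.86 without ventral replicate 1.

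*Tcf21*, the close relative of *Msc*, had higher values ventrally on both of its probe sets, and neither passed the test. Probe set 1417447_at gave 9.37 and 9.01 dorsally and 10.26 and 9.54 ventrally. Both ventral values lay above both dorsal ones, as in 16.4% of all tested probe sets, but the gap of 0.17 between them was smaller than the distance between replicates of either part. The difference was -0.71 ± 0.24 (standard error, 95% interval -1.24 to -0.18, adjusted p = 0.141 from limma). When 1 probe set per gene was tested, over 13139 genes, the same values had an adjusted p of 0.0332 from limma, so the call changed in this fit, and over all alternatives the adjusted p ran from 0.00240 to 0.989. Without ventral replicate 1 the difference was -0.35, and without ventral replicate 2 it was -1.07.

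The other *Tcf21* probe set, 1458887_at, gave 4.59 and 4.73 dorsally, against 5.45 and 5.18 ventrally. The dorsal values were below the 40th percentile of their arrays, so this probe set entered the test through its ventral arrays alone, and its difference of -0.66 ± 0.17 (standard error, with an adjusted p of 0.0534 from limma) adds no support to that of 1417447_at. It was -0.59 with values under the 40th percentile raised to it. The adjusted p from limma passed at 0.0488 with array medians set equal, 0.0425 without probe sets that may match several transcripts, 0.0483 with robust eBayes and 0.00637 with the replicate number as a block. It did not pass with eBayes fitted to a trend (0.0646), with low values raised (0.0808), with no filter (0.0814), after quantile normalization once more (0.105), without dorsal replicate 2 (0.457) or without dorsal replicate 1 (0.863).

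*Hand2* was read by 3 probe sets that did not show the same difference. Probe set 1436041_at gave 7.61 and 7.67 dorsally, against 10.07 and 9.69 ventrally. Both ventral values lay above both dorsal ones by at least 2.01. The ventral mean was 9.88 ± 0.27 and the dorsal mean 7.64 ± 0.04 (SD, n = 2 arrays each), a log2 difference of -2.23 ± 0.18 (standard error) or 4.70-fold, with an adjusted p of 2.86e-05 from limma. The dorsal values were at the 71.7 to 72.3 percentile of their arrays, so *Hand2* was not at the low end dorsally. The difference ran from -2.42 without ventral replicate 2 to -2.04 without ventral replicate 1.

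Of the other *Hand2* probe sets, 1443854_at gave 4.61 and 4.86 dorsally and 4.83 and 5.37 ventrally. These values overlapped between the parts, and their difference of -0.37 did not pass (95% interval -0.82 to 0.09, adjusted p = 0.441 from limma). Probe set 1422221_at gave 3.98 and 4.09 dorsally and 4.48 and 4.57 ventrally, below the 40th percentile on each of the 4 arrays, and it was not tested. Its difference was -0.49, with a gap of 0.39 between the lower ventral and the higher dorsal array. Raising its values to the 40th percentile leaves only the difference between the percentiles of the arrays (-0.028), which carries nothing about this probe set. The *Hand2* result thus rests on 1436041_at alone.

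*Hand1* was low in both parts. Probe set 1417525_at gave 4.63 and 4.47 dorsally, against 4.70 and 5.16 ventrally, at the 35.9 to 45.4 percentile of the arrays. It entered the test through the ventral arrays alone, of which replicate 1 lay at the 40.1 percentile. Its difference of -0.38 did not pass (95% interval -0.80 to 0.05, adjusted p = 0.379 from limma), and it was -0.20 with low values raised to the 40th percentile. Probe set 1448750_at had values from 4.04 to 4.28 on the 4 arrays, which overlapped between the parts and lay below the 40th percentile. No detection calls were used here, so these values do not show whether *Hand1* RNA was present.

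*Twist1* and *Twist2* had smaller differences than *Msc* and *Hand2* 1436041_at, and neither passed the test with all 4 arrays. *Twist1* (1418733_at) had 8.17 and 8.19 dorsally and 8.02 and 7.64 ventrally, with a difference of 0.35 (95% interval -0.05 to 0.75, adjusted p = 0.389 from limma). *Twist2* (1448925_at) had 8.45 and 8.53 dorsally and 8.18 and 7.92 ventrally, with a difference of 0.44 (95% interval 0.06 to 0.82, adjusted p = 0.222 from limma). For each gene the dorsal arrays lay above the ventral ones, as they did for 31.8% of all tested probe sets. The lowest value of each was that of ventral replicate 2. Without ventral replicate 1 both passed, at 0.54 and 0.57 (adjusted p = 0.0225 and 0.0232 from limma, within 0.0225 to 1 and 0.0232 to 1 over the alternatives), in a fit where the median difference of all probe sets was 0.19 rather than 0.08. Without ventral replicate 2 the *Twist1* difference was 0.16 and the *Twist2* difference 0.31.

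**Figure D2:**
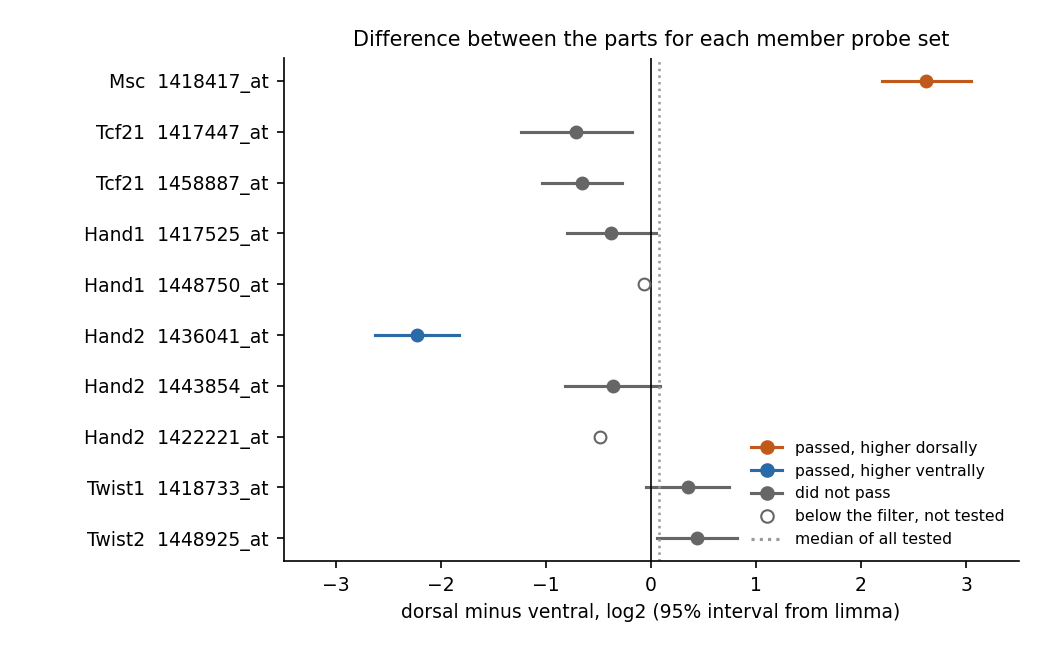
Log2 difference between the parts (dorsal minus ventral, horizontal axis) of each member probe set, with the 95% interval from limma as a line, open circles for the probe sets below the filter and a dotted line at the median of all tested probe sets (0.08). The intervals of *Msc* (2.20 to 3.04) and of *Hand2* 1436041_at (-2.63 to -1.83) lie far from 0 on opposite sides, and the other 8 probe sets lie between -0.71 and 0.44.

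**Figure D3:**
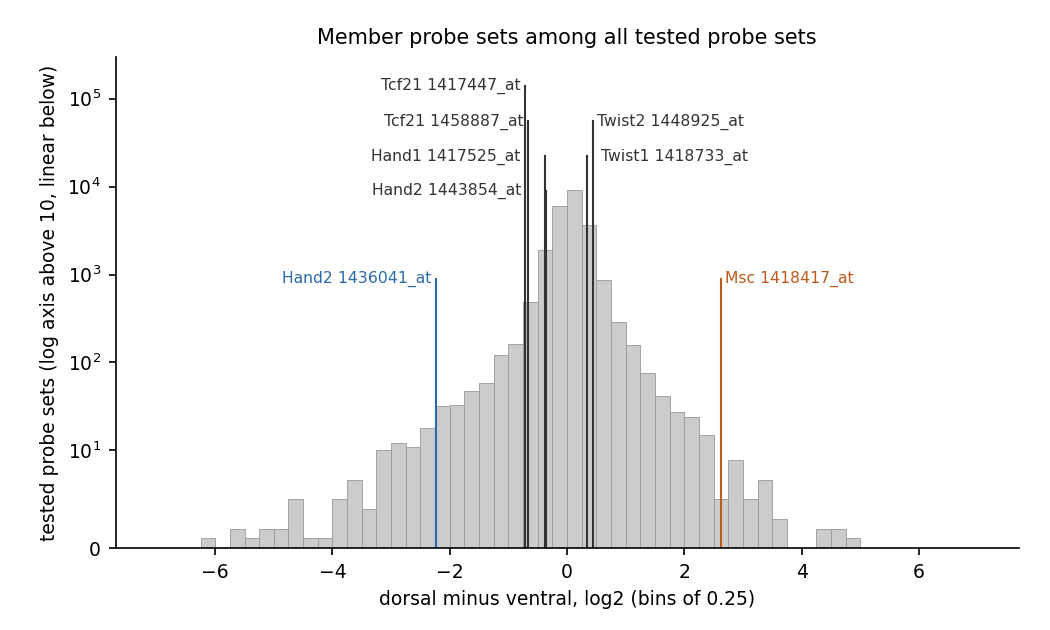
Number of the 23336 tested probe sets (vertical axis, logarithmic above 10 and linear below) by dorsal minus ventral difference (log2, horizontal axis, bins of 0.25), with vertical lines at the 8 tested member probe sets, whose heights carry no value. *Msc* and *Hand2* 1436041_at lie in the sparse tails, and the other 6 lie nearer the centre.

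The promoters of 4 member genes were matched by gene ID in RefSeq (GRCm38.p6). *Msc* and *Hand1* were not matched. Those of *Hand2* and *Tcf21* are shown because these are the members whose higher values were ventral and well above the 40th percentile. The 250 bases before each gene start are given 5′ to 3′ on the strand of the gene, with each E-box (CANNTG) in capitals. The windows are chr8:57320733-57320982 on the plus strand for *Hand2* and chr10:22820144-22820393 on the minus strand for *Tcf21*.
Hand2: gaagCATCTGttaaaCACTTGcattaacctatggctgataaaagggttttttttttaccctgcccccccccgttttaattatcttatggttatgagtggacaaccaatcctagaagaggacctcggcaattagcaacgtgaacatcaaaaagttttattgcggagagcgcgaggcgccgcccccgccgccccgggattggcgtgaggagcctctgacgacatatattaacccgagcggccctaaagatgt
Tcf21: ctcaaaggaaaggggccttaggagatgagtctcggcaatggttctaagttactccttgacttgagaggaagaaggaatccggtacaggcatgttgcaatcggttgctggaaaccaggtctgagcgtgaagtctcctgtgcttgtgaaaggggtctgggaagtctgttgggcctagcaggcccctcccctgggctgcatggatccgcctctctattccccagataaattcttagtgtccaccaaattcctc

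The *Hand2* window held 2 E-boxes, CATCTG and CACTTG, and the *Tcf21*, *Twist1* and *Twist2* windows held 0. Both strands were searched. Of 32851 promoter windows of this length, 66.2% held CANNTG, 13% held its form CAGCTG and 14.4% its form CATCTG, so an E-box in such a window is common. These letters are a description of the sequence and not a sign of binding.

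The contrast of *Msc* with its relatives was then measured on each array, as the *Msc* value minus the value of the other gene, each by its probe set with the highest mean. Values of different probe sets are not levels of RNA that can be ranked, so only the shift of this quantity from part to part was compared. *Msc* minus *Tcf21* was 1.87 and 2.19 dorsally, against -1.43 and -1.18 ventrally. The dorsal and ventral arrays did not overlap in this quantity, and the shift was 3.33 (10.1-fold). Most of this shift was the *Msc* difference of 2.62. The *Tcf21* difference of -0.71 did not pass on its own (adjusted p = 0.141 from limma).

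*Msc* minus *Hand2* was 3.62 and 3.53 dorsally and -1.23 and -1.33 ventrally, a shift of 4.85 (28.9-fold). Its SD was 0.07 in each part (n = 2 arrays), where *Msc* and *Hand2* alone had larger SDs of 0.34 and 0.27 ventrally and smaller ones of 0.02 and 0.04 dorsally. The shift was 3.65 when all 3 *Hand2* probe sets were averaged, an average that includes 1422221_at, which was below the 40th percentile on each of the 4 arrays. *Msc* minus *Hand1* was 6.60 and 6.73 dorsally and 4.14 and 3.20 ventrally, a shift of 3.0, but with the *Hand1* values at the low end of the arrays it mostly followed *Msc*. For each of these 3 pairs the exact permutation test of 2 arrays against 2, two-sided, gave p = 0.333, the smallest it can give (0.333 when adjusted over the 3 pairs). The sign of the shift was the same under the alternatives run, from 2.47 for *Hand1* within the arrays numbered 1 to 4.90 for *Hand2* without ventral replicate 1.

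**Figure D4:**
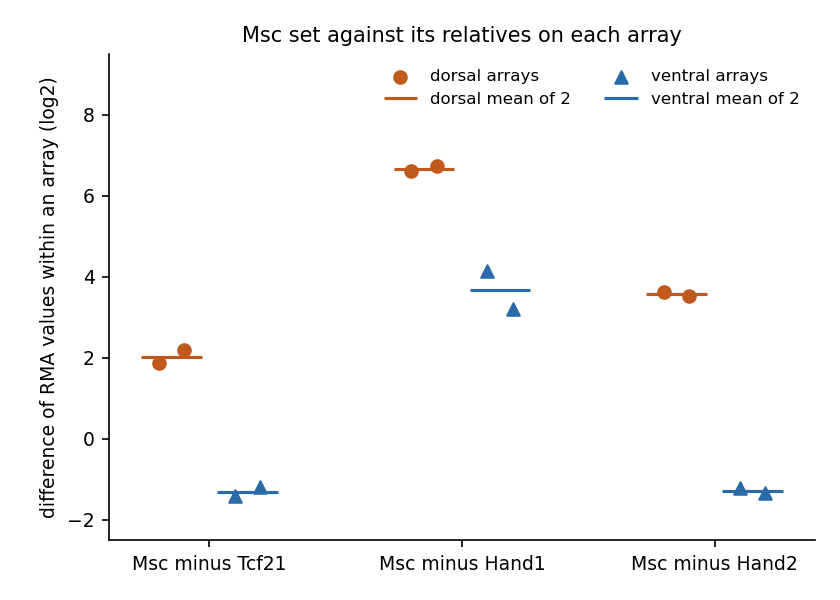
*Msc* value minus that of *Tcf21*, *Hand1* or *Hand2* within each array (log2, vertical axis) on dorsal arrays (circles) and ventral arrays (triangles), with a bar at the mean of 2. For each pair the dorsal values lie above the ventral ones, with shifts of 3.33, 3.0 and 4.85, and the height of a pair on the axis carries no meaning because different probe sets are subtracted.

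The partners and inhibitors of these factors were described by the probe set with the highest mean of each gene. Over the 13139 genes tested in this way, 3.44% were higher dorsally and 3.01% ventrally, and the median difference of all probe sets was 0.08. None of the 3 E protein genes passed in limma, and 2 had an unadjusted p under 0.05. Their differences were 0.42 for *Tcf3*, 0.53 for *Tcf4* and 0.05 for *Tcf12* (adjusted p = 0.269, 0.113 and 0.906 from limma), with a median of 0.42. Without ventral replicate 1 the differences were 0.59 for *Tcf3* and 0.60 for *Tcf4*, in a fit where the median difference of all probe sets was 0.19. Another *Tcf12* probe set, 1439209_at, named here after its values were seen, was higher dorsally, with 7.86 and 7.92 against 7.24 and 7.11 (difference 0.71, adjusted p = 0.0264 from limma). The *Tcf12* probe sets 1421908_a_at (0.26) and 1446294_at (0.06) did not pass, and 1439619_at was below the 40th percentile on each of the 4 arrays. The further tested probe sets of *Tcf3* and *Tcf4* did not pass either, with differences from 0.33 to 0.67.

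Of the 4 Id genes, *Id2* was higher ventrally and the other 3 did not pass, with a median of -0.51. *Id2* (1435176_a_at) gave 11.39 and 11.29 dorsally, against 12.43 and 12.40 ventrally, a difference of -1.07 (adjusted p = 0.00219 from limma), and its other probe sets gave -1.20 and -0.90. Without dorsal replicate 2 its adjusted p was 0.0556 at -1.02, and the range over the alternatives began at 3.36e-07. *Id1* differed by -0.47, *Id3* by -0.55 and *Id4* by 0.23 (adjusted p = 0.284, 0.117 and 0.661 from limma). *Id3* passed with the values quantile-normalized once more (-0.65) and with a trend in eBayes (-0.55). Its difference was -0.39 without ventral replicate 1 and -0.70 without ventral replicate 2. The *Id4* difference was 0.57 without ventral replicate 1, where the median difference of all probe sets was 0.19.

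Other bHLH genes of mesoderm were low or did not pass the test. Of 8 such genes, *Tcf15*, *Mesp1* and *Mesp2* were tested and none passed in limma (0 at an unadjusted p under 0.05), with differences of 0.08, -0.28 and -0.17. The other 5 (*Scx*, *Msgn1*, *Ferd3l*, *Tcf23* and *Tcf24*) lay below the 40th percentile on each of the 4 arrays. The myogenic factors *Myf5*, *Myod1*, *Myog* and *Myf6*, which drive skeletal muscle differentiation, had values from 2.60 to 4.92 and none was tested. *Myod1* exceeded the 40th percentile on ventral replicate 2 alone, and the other 3 on no array.

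Among regulators of pharyngeal muscle precursors, *Tbx1* was higher dorsally and *Isl1* ventrally. *Tbx1*, a T-box gene of pharyngeal mesoderm, had 7.94 and 8.04 dorsally and 6.46 and 6.62 ventrally (difference 1.45, adjusted p = 0.000313 from limma). *Isl1*, a homeobox gene of second heart field and pharyngeal mesoderm, had 10.33 and 10.42 dorsally and 12.14 and 11.93 ventrally (difference -1.66, adjusted p = 0.000126 from limma). *Lhx2* had values from 3.23 to 3.46 and was not tested.

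Markers of some other cell types differed between the parts, in either direction. Of 13 tested heart muscle genes, 12 were higher ventrally and 0 dorsally, as *Hand2* was, with a median difference of -3.57. The mean of the 15 listed genes was 5.79 to 5.80 on the dorsal arrays and 8.45 to 8.67 on the ventral ones. The myosin gene *Myh6* had means of 3.90 dorsally, below the 40th percentile, and 10.06 ventrally, while *Myl2* and *Nppa* were below it on each of the 4 arrays. *Myh6* and *Ryr2* entered the test through the ventral arrays alone, and 12 heart muscle genes were higher ventrally with low values raised to the 40th percentile. The part of heart muscle in the *Hand2* difference was not tested.

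Of 7 tested genes of mesothelium and septum transversum, called mesothelial here, 5 were higher dorsally, as *Msc* was, and 0 ventrally. Their median difference was 1.90. The mean of the 8 listed genes was 7.60 to 7.69 dorsally and 6.08 to 6.27 ventrally. *Bnc1* had means of 8.74 and 5.14, *Wt1* had 6.96 and 4.0, *Upk3b* had 8.89 and 6.33, and *Msln* lay below the 40th percentile on each of the 4 arrays. *Tbx18*, with means of 9.15 dorsally and 9.34 ventrally (difference -0.18), and *Upk1b*, with 4.87 and 4.86, did not pass. The ventral values of *Wt1* were below that percentile, so it entered the test through the dorsal arrays alone, and its difference of 2.96 was 2.20 with low values raised. The mesothelial count was 5 with low values raised. Without dorsal replicate 1 or without dorsal replicate 2, 3 mesothelial genes were higher dorsally. Of 6 neural crest genes, 5 were higher dorsally and *Ednrb* was higher ventrally, with a median difference of 1.70 and list means of 8.13 to 8.30 dorsally and 6.40 to 6.44 ventrally. None of these 6 was below the 40th percentile on all arrays, but *Foxd3* entered the test through the dorsal arrays alone. Its difference was 1.14 (0.62 with low values raised), and with low values raised 4 neural crest genes were higher dorsally. Of 4 tested somite genes, *Meox1* and *Meox2* were higher dorsally, with a list median of 0.70 and list means of 5.59 to 5.90 and 5.11 to 5.36. *Uncx* was below the 40th percentile on each array. *Meox2* (0.78, adjusted p = 0.0403 from limma) was lost under several alternatives, where 1 somite gene passed. The part of these cell types in the *Msc* difference was not tested. None of 11 epithelial and 6 endothelial genes passed in limma, with 7 and 1 at an unadjusted p under 0.05 and medians of -0.43 and 0.11. With either ventral array left out, calls of epithelial and endothelial genes changed, but the spread then comes from the dorsal arrays alone. The median difference of all probe sets was 0.19 without ventral replicate 1, so such calls are not read as a result about these lists. With all 4 arrays, 5 epithelial genes were higher ventrally and 1 dorsally under the replicate block, 3 and 1 with 1 probe set per gene, 1 and 1 with the filter at the 60th percentile, 3 and 1 at an adjusted p of 0.1, and 1 ventrally and 0 dorsally with a trend in eBayes. After quantile normalization once more, 4 epithelial genes and 1 endothelial gene were higher ventrally.

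**Figure D5:**
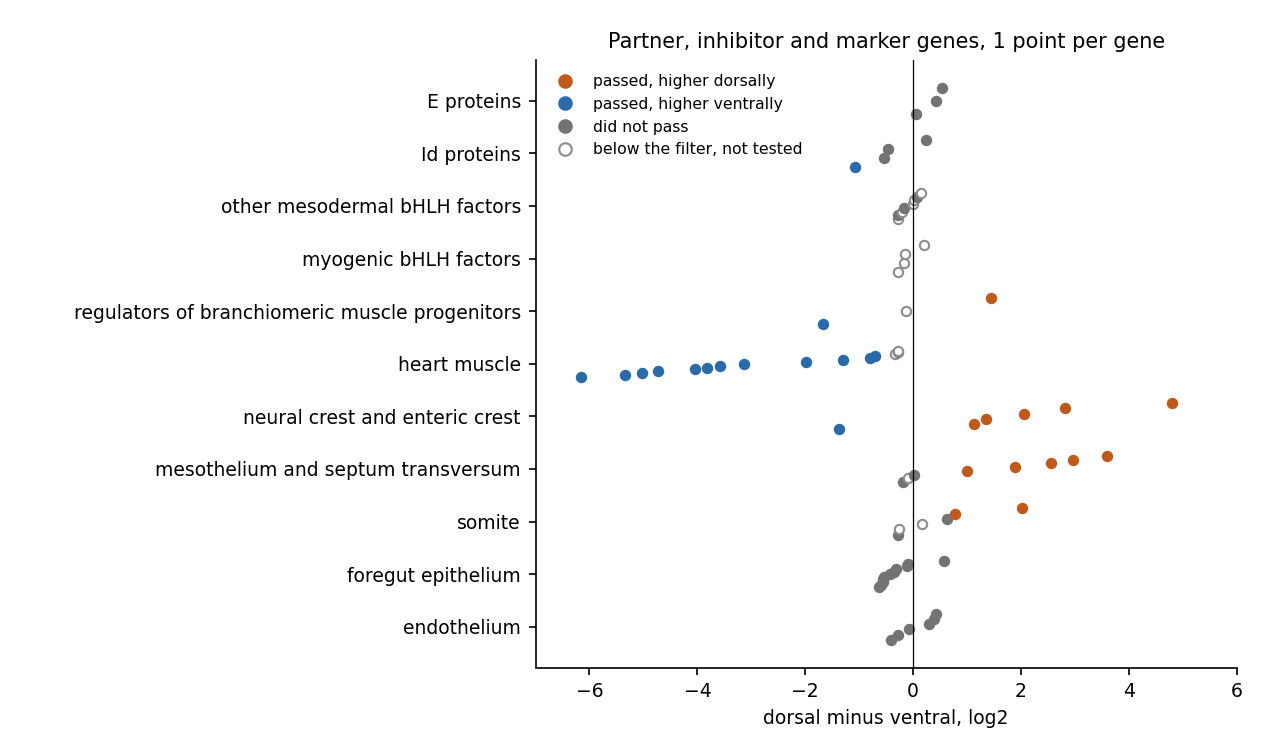
Log2 difference between the parts (dorsal minus ventral, horizontal axis) of the genes of each list, each gene a point whose colour gives its limma call, with open points for genes below the filter. The heart muscle gene *Myh6* lies farthest to the ventral side, at -6.16 (-5.33 with low values raised to the 40th percentile, since its dorsal values are below it). The neural crest gene *Ret* lies farthest to the dorsal side, at 4.79 (4.62 with low values raised), and the E protein genes lie between 0.05 and 0.53.

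The genes with the pattern most like each member were named by the Euclidean distance over the 4 arrays, after the mean of each probe set was subtracted, among 13138 other genes. Nearest to *Msc* were the mesothelial gene *Upk3b*, the Wnt ligand gene *Wnt4* and *Lrrn1*, at distances of 0.10, 0.18 and 0.18 log2 units. *Upk3b* had 8.95 and 8.83 dorsally and 6.54 and 6.12 ventrally. *Wnt4* had 9.52 and 9.60 dorsally and 7.30 and 6.88 ventrally. Nearest to *Hand2* were *Gata6*, a GATA factor gene of endoderm and heart, the potassium channel gene *Kcnq3* and the receptor gene *Trhr*, at 0.09, 0.09 and 0.10. *Gata6* had 8.79 and 8.81 dorsally and 11.13 and 10.77 ventrally. The dorsal values of *Trhr*, 3.20 and 3.34, were below the 40th percentile, and its difference of -2.22 was -0.76 with low values raised, so its distance to *Hand2* rests on values below that percentile. Nearest to *Tcf21* were *Uchl1*, *Cables2* and the ephrin gene *Efna1*, at 0.08, 0.16 and 0.18. With 4 arrays these distances, which were not scaled by the spread of a gene, only describe the values.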

How the data were processed

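RNA was labelled from 100 ng in 2 cycles. The authors summarised the scans by RMA and deposited 1 value per probe set, read here as log2 from the range of 2.36 to 15.02. For RMA, a version was not given in the sources used here. Columns were mapped to parts by the labels. Gene symbols came from GEO's platform annotation, with 34958 probe sets of 1 symbol, 932 of several and 9211 unnamed here. Of the probe sets of 1 symbol, 34754 were matched by gene ID to RefSeq (GRCm38.p6). Probe sets with 1 symbol above the 40th percentile on at least 2 arrays were fitted as dorsal minus ventral with limma 3.58.1 in R 4.3.3 (lmFit, eBayes, two-sided, Benjamini-Hochberg over 23336), without a term for the replicate number. The fit was tested on simulated data. The files name no genome build, so no probe set position is given. The number of arrays limits the precision. Members and lists were chosen with earlier results of these data known. Named genes were all member probe sets, all genes of lists with 4 or fewer members, up to 4 called genes of longer lists and the 3 nearest patterns per member, with the other listed genes given by counts. *Epcam*, *Foxa2*, *Sox2*, *Nkx2-1*, *Tcf15*, *Mesp1*, *Mesp2*, *Myl2*, *Nppa*, *Ryr2*, *Msln*, *Tbx18*, *Upk1b*, *Uncx*, *Foxd3*, genes named only as below the 40th percentile, and the further probe sets of *Tcf3*, *Tcf4* and *Tcf12* fall outside this rule and were named after their values were seen. Alternatives were other filters, normalizations, spread models, thresholds, 1 probe set per gene, the replicate number as a block and the omission of each array.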

Additional observations from a re-analysis of the deposited data

How the results depend on the processing

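The *Msc* and *Hand2* 1436041_at calls kept their direction and passed under each of 16 alternatives, with adjusted p at most 0.00333 and 0.00406 from limma. The count of member probe sets higher dorsally ran from 1 to 3 with 1 array left out, and the ventral count from 1 to 2. The ventral count was 2 with array medians set equal, with 1 probe set per gene, without probe sets that may match several transcripts, with robust eBayes and at an adjusted p of 0.1, in each case through *Tcf21*. The cause was not tested. For all probe sets, the counts with 1 array left out ran from 296 to 6739 dorsally and from 354 to 2149 ventrally, where the spread comes from the other part alone, and at an adjusted p of 0.01 they were 411 and 394. The labels do not say that same-numbered arrays are paired, and their deviations correlated at 0.21 over the probe sets. With the replicate number as a block, 1389 probe sets were higher dorsally and 937 ventrally, and 3 member probe sets were higher ventrally, among them both of *Tcf21* (adjusted p = 0.00240 and 0.00637 from limma). *Tcf4* (0.53) and *Id3* (-0.55) passed under the block too. Among the member and pathway probe sets, signs turned only for small differences that did not pass with all 4 arrays, with *Tcf12* at -0.056 and *Tcf15* at -0.019 after quantile normalization once more, and with *Id4* from -0.11 to 0.57 and *Mesp2* from -0.37 to 0.019 as single arrays were left out. Quantile normalization moved the median of all differences from 0.08 to -0.0063. Probe sets under the filter in a given alternative have no value there. With 2 arrays per part, moderate differences such as those of *Tcf21* and *Twist2* could not be settled. The alternatives for the gene lists and pathway genes, and raised low values for all probe sets, were chosen after seeing the data.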

Other observations

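The genes nearest to the members with small differences were named in the same way. The distance was not scaled by the spread of a gene, so a small distance here does not mean a closer likeness than that found for *Msc* or *Hand2*. Nearest to *Twist1* were *Zmat3*, *Ttll11* and *Zkscan17*, at distances of 0.0037, 0.0079 and 0.016 log2 units, and nearest to *Twist2* were *Nhsl2*, *Vnn1* and *Fastkd2*, at 0.020, 0.031 and 0.032. Nearest to *Hand1* were *Cd40lg*, *Fgfr4* and *Aplp2*, at 0.033, 0.037 and 0.044. For *Hand1* the highest value was that of ventral replicate 2, and for *Twist1* and *Twist2* the lowest value was that of the same array. Their nearest genes shared this, which follows from how they were chosen and is no separate result.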
